A study of Mus musculus with 4 samples.

Results

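The Pax genes examined were Pax1, Pax2, Pax3, Pax6, Pax7, Pax8 and Pax9. They were taken as a named family and matched by Ensembl identifier, which found all 7 among the 27514 identifiers shared by the gene tables of 4 single-cell RNA-seq libraries. Pax4 and Pax5, the other members in those tables, were not chosen and are given as values at the end. The libraries came from Swiss Webster mouse embryos at embryonic day (E) 8.5 and E9.5, and each group was 1 library made from pooled embryos. Control (Ctrl) embryos carried Tbx1Cre/+;Rosa26-GFPflox/+ and conditional knockout (cKO) embryos carried Tbx1Cre/flox;Rosa26-GFPflox/+. Cre is expressed from the Tbx1 locus itself, so control embryos already had 1 disrupted Tbx1 allele, and GFP stayed on in every descendant of a cell that had used the locus. GFP-positive cells that excluded the dye DAPI were sorted. At E8.5 they came from the upper part of the body and at E9.5 from the pharyngeal apparatus with the heart. The study's sample summary adds the back at E9.5, which its methods do not name. The comparison of cKO with Ctrl asks how the level and cell distribution of each Pax gene differ when the second Tbx1 allele is also lost in the lineage.

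Pax proteins are transcription factors that bind DNA through a paired domain, and some of them carry a homeodomain as well. Pax1 and Pax9 are close relatives known from the pharyngeal pouch endoderm, where they act in thymus and parathyroid formation, and from the sclerotome. Pax2 and Pax8 act together in the otic placode and kidney, Pax3 and Pax7 mark the dorsal neural tube, neural crest and dermomyotome, and Pax6 acts in the eye, forebrain and pancreas.

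Positions are those of RefSeq in GRCm38.p6. Pax1 (ENSMUSG00000037034) lies at chr2:147361930-147375049, Pax9 (ENSMUSG00000001497) at chr12:56691693-56712824, Pax8 (ENSMUSG00000026976) at chr2:24420551-24475599 and Pax2 (ENSMUSG00000004231) at chr19:44746601-44838269. Pax3 (ENSMUSG00000004872) lies at chr1:78101267-78197136, Pax7 (ENSMUSG00000028736) at chr4:139737059-139833530 and Pax6 (ENSMUSG00000027168) at chr2:105668896-105698410. Every member but Pax3 is overlapped by another annotated gene, among them Slc25a21 for Pax9, Elp4 and Pax6os1 for Pax6, AI646519 for Pax1 and Gm13415 for Pax8. The strand used in counting is not given in the sources used here, so reads of overlapping genes are an uncertainty in these counts.

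The libraries held 1434 (Ctrl E8.5), 1090 (cKO E8.5), 5453 (Ctrl E9.5) and 6266 (cKO E9.5) cells, with medians of 15888 to 23883 UMIs per cell, a UMI being the tag that marks 1 captured transcript. Levels are UMIs of a gene per 1000000 UMIs of all shared genes, summed over the cells compared (UPM). With 1 library per group there was no replicate and no test. Every range in parentheses is a 95% interval that covers counting error only, with nothing of the variation between embryos or library preparations. Ranges of levels and ratios treat UMIs as independent, so they also leave out variation between cells. In groups of few cells they can thus be too narrow. The cKO E9.5 library has a different gene table from the rest, so library, annotation and genotype cannot be told apart. Between 2 and 55 cell barcodes occurred in any pair of libraries. Tbx1 transcripts stood at 86.4 and 118 UPM in the libraries labelled Ctrl and cKO at E8.5 and at 103 and 134 UPM at E9.5. The count of this gene was thus higher in cKO at both stages and did not show the loss of the second allele. Which part of the transcript remains after recombination was not tested.

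Cells were placed in groups by 149 marker genes, none of them a Pax gene: a cell joined a group when it held at least 3 of that group's markers, including a defining one. Epithelial cells were split further into pharyngeal endoderm, otic epithelium, surface or placodal ectoderm and other epithelium. Between 10.2% and 16.3% of cells stayed without a group. In the E9.5 libraries the epithelial markers summed to 2387 UPM inside the epithelial group and 110 UPM outside it in Ctrl, and to 2075 and 73.4 UPM in cKO. The group defined by Arg1 and meant for multilineage progenitors was mixed, since 87 of its 402 cells in Ctrl and 44 of 726 in cKO at E9.5 also held the epithelial transcript Epcam. For this reason cells were also split, after the values had been seen, into Epcam-positive cells, Arg1-positive cells without Epcam, and cells with neither transcript.

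Epithelial cells were 12.4% of Ctrl cells and 2.89% of cKO at E9.5 cells, and Epcam-positive cells were 17.1% and 5.62%. At E8.5 only 15 and 12 cells were epithelial. Arg1-positive cells without Epcam were 16% of Ctrl and 32.6% of cKO at E9.5 cells. Detection of Arg1 differed within groups as well. It was held by 162 of 1969 Ctrl and 654 of 3000 cKO cells in Crym or Ebf mesenchyme. In Foxd1 or Foxf2 mesenchyme it was held by 249 of 839 and 417 of 934. Anterior second heart field went the other way, with 32 of 93 and 18 of 78. A set chosen by Arg1 can thus hold a different mix of cells in each library, and ratios within it carry that limit. In a level over all cells, fewer cells of a type and less RNA per cell cannot be told apart, so each all-cell value below is followed by values within groups.

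The promoters of Pax9 and Pax1 are shown because Pax1 had the profile across cell groups most like that of Pax9, and because these members had the lowest cKO to Ctrl ratios in epithelium. Tbx1 is a T-box factor, and the T-box half-site AGGTGT was searched on both strands (ACACCT on the other) in RefSeq windows of 300 bases around gene starts in GRCm38.p6. It was present in 4514 of 32851 windows (13.7%). Of the 6 members that had a window, Pax9 alone held a match, in 1 of 9 member windows, and it is written in capitals. The Pax9 window is chr12:56695221-56695520 and the Pax1 window is chr2:147364744-147365043, both on the plus strand and both reaching 50 bases past an annotated start.
Pax9: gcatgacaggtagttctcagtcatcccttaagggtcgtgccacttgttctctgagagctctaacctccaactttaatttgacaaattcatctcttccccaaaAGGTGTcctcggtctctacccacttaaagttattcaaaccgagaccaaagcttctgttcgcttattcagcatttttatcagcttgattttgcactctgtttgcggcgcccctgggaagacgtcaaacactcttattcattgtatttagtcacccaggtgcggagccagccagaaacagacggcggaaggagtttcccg
Pax1: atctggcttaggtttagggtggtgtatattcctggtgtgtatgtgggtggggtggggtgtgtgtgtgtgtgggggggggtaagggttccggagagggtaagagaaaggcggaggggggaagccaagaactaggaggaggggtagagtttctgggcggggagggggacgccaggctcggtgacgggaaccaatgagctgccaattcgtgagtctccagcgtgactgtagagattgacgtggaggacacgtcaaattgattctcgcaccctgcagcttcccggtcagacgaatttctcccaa
A match is a run of letters and not a measured site, and the Pax1 window says only that these letters are not in it. Pax3 had no window.

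Pax1, Pax8 and Pax9 were the members that were higher in Ctrl E9.5 than in Ctrl E8.5, and Pax3 and Pax6 were lower. Pax1 had 10, 14, 1706 and 368 UMIs in Ctrl E8.5, cKO E8.5, Ctrl E9.5 and cKO E9.5, the order used throughout, which gave 0.396, 0.544, 18.1 and 3.52 UPM. Pax9 had 174, 222, 2772 and 1716 UMIs, or 6.89, 8.63, 29.4 and 16.4 UPM. Both pouch genes were therefore highest in Ctrl E9.5, and Pax1 was near its detection limit at E8.5. Pax8 had 11, 15, 547 and 489 UMIs, or 0.436, 0.583, 5.8 and 4.67 UPM. Pax2, its partner in the otic placode, had 10, 12, 41 and 18 UMIs, or 0.396, 0.466, 0.435 and 0.172 UPM. Both were scarce at E8.5, and of the pair Pax8 alone was more abundant at E9.5. Pax6 had 228, 199, 312 and 335 UMIs, or 9.03, 7.73, 3.31 and 3.2 UPM. Pax3 had 149, 181, 84 and 164 UMIs, or 5.9, 7.03, 0.891 and 1.57 UPM. For Pax6 and Pax3 the E8.5 libraries were the high ones. Pax7, the sister gene of Pax3, had 8, 3, 18 and 3 UMIs, or 0.317, 0.117, 0.191 and 0.0287 UPM, too few for a comparison at E8.5.

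**Figure D1:**
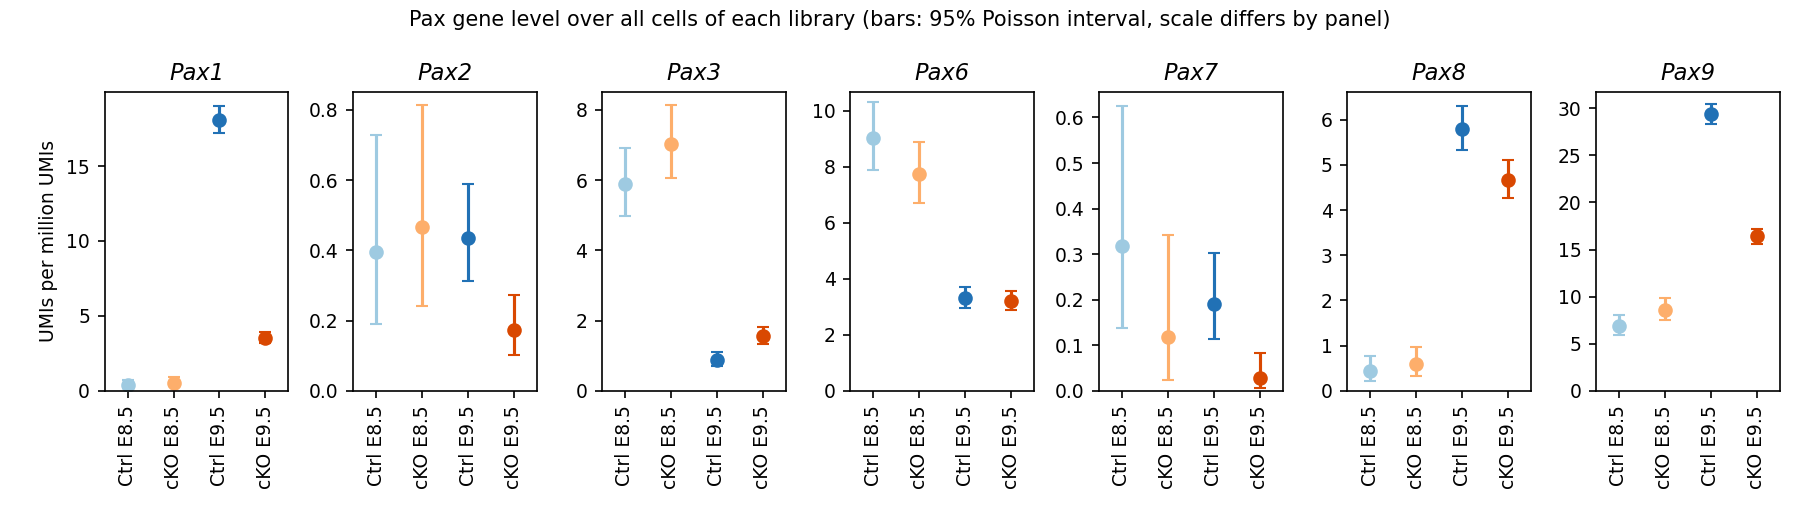
Level of each Pax gene over all cells of each library, in UPM on a linear axis from 0 whose scale differs between the 7 panels, with 95% Poisson intervals as bars. Pax1 stands at 18.1 UPM in Ctrl and 3.52 in cKO at E9.5, Pax9 at 29.4 and 16.4, while Pax3 and Pax6 are highest in the E8.5 libraries.

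The log2 ratio of Ctrl E9.5 to Ctrl E8.5 was 5.51 (4.63 to 6.58) for Pax1, 3.73 (2.88 to 4.75) for Pax8 and 2.09 (1.87 to 2.32) for Pax9. These 3 of 7 members were at least 2-fold higher, against 18.1% of the 14441 genes with 20 or more UMIs over both libraries. Pax3 at -2.73 (-3.13 to -2.33) and Pax6 at -1.45 (-1.70 to -1.20) were the 2 of 7 that were at least 2-fold lower, against 2.98% of the same genes. Pax2 at 0.13 (-0.89 to 1.30) and Pax7 at -0.73 had intervals that spanned 0. The median gene stood at 0.38 in this comparison, and centred on it the values were 5.13 for Pax1, 3.35 for Pax8, 1.71 for Pax9, -3.11 for Pax3 and -1.83 for Pax6, while Pax2 turned to -0.25. The dissected tissue also differed between the stages.

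At E8.5 no member differed 2-fold between cKO and Ctrl among the 6 with enough UMIs, against 2.92% of 12762 genes that were higher and 1.30% that were lower. Pax9 was somewhat higher in cKO, at a log2 ratio of 0.32 (0.03 to 0.62) beside a median gene at 0.04, and the intervals of the others spanned 0. The study's sample summary gives the E8.5 cKO pool a slightly later, overlapping range of somite numbers than the Ctrl pool. Genotype and embryo age within E8.5 therefore cannot be told apart. At E9.5 the ratio of Pax1 was -2.36 (-2.53 to -2.20), that of Pax2 -1.34 (-2.23 to -0.51) and that of Pax7 -2.74 (-5.14 to -0.96). These 3 of 7 members were at least 2-fold lower in cKO, against 9.80% of 15130 genes, and none was 2-fold higher, against 3.56%. Pax9 stood at -0.84 (-0.93 to -0.75) and Pax8 at -0.31 (-0.49 to -0.13). Pax3 was higher in cKO at 0.81 (0.43 to 1.21), and Pax6 had nearly the same level, at -0.05 (-0.27 to 0.18).

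The median gene stood at -0.26 in the E9.5 comparison. Centred on it, Pax1 was at -2.11, Pax2 at -1.08, Pax7 at -2.48, Pax9 at -0.58, Pax8 at -0.05, Pax6 at 0.21 and Pax3 at 1.07, so the difference in Pax8 was about that of the median gene. To set aside the unequal mix of cells, the cKO levels within groups were also averaged with the share of UMIs that each group held in Ctrl. The log2 ratio of Pax1 was then -0.63, that of Pax2 -0.20, that of Pax8 0.08 and that of Pax6 0.26, while Pax9 stayed at -0.77, Pax3 at 0.63 and Pax7 at -1.36. Most of the all-cell difference in Pax1 was thus no longer present at equal group shares, whereas that in Pax9 remained.

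**Figure D2:**
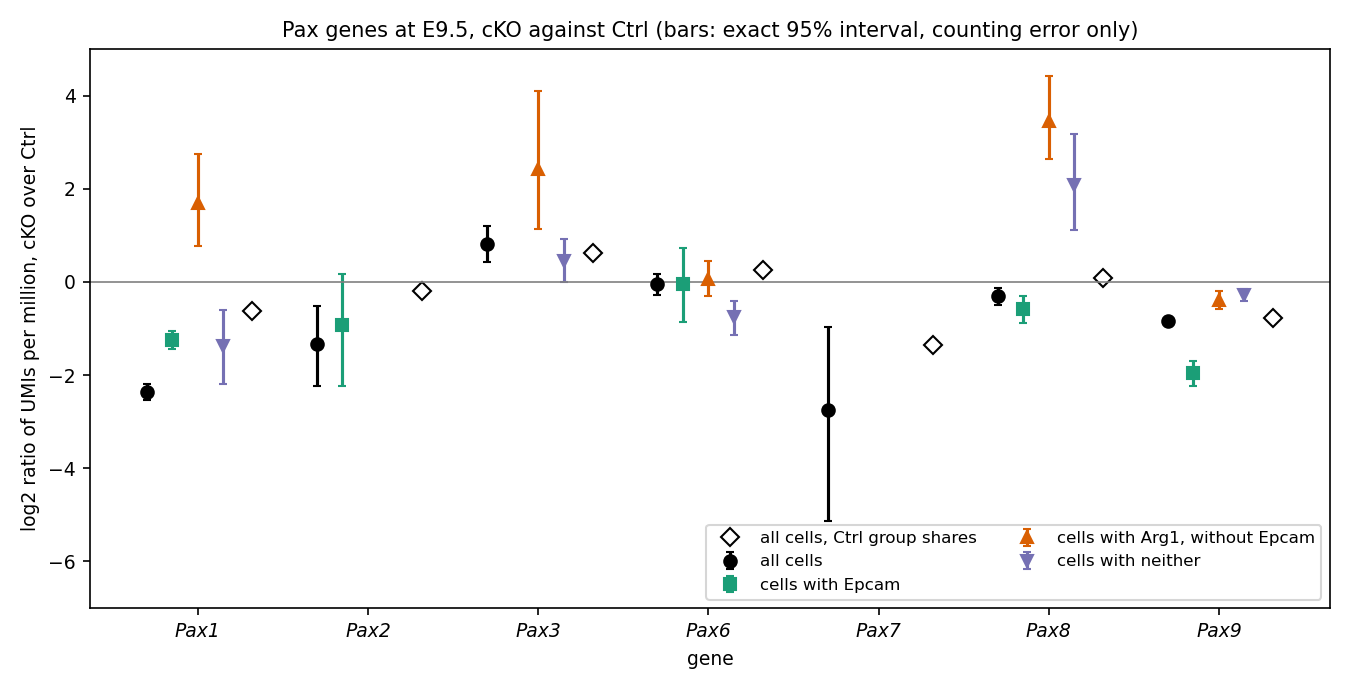
Log2 ratio of cKO to Ctrl at E9.5 for each Pax gene over all cells, in Epcam-positive cells, in Arg1-positive cells without Epcam and in cells with neither, with 95% counting intervals; open diamonds are all-cell ratios at Ctrl group shares. Pax8 is at -0.59 in Epcam-positive cells and 3.46 in Arg1-positive cells without Epcam, and Pax9 lies below 0 in all 3 cell sets. For Pax9 the values are -1.95 in Epcam-positive cells and -0.39 in Arg1-positive cells without Epcam, beside median genes at -0.22 and -0.25.

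Across the cell groups of Ctrl E9.5 the genes overlapped in the epithelium, where Pax1, Pax9, Pax8 and Pax2 were all present, and Pax9 was also in mesenchyme. Pax3, Pax6 and Pax7 were highest in neural progenitors in that library. Levels are compared within a gene and not between genes, because the 3′ counts do not give a common scale for different transcripts.

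**Figure D3:**
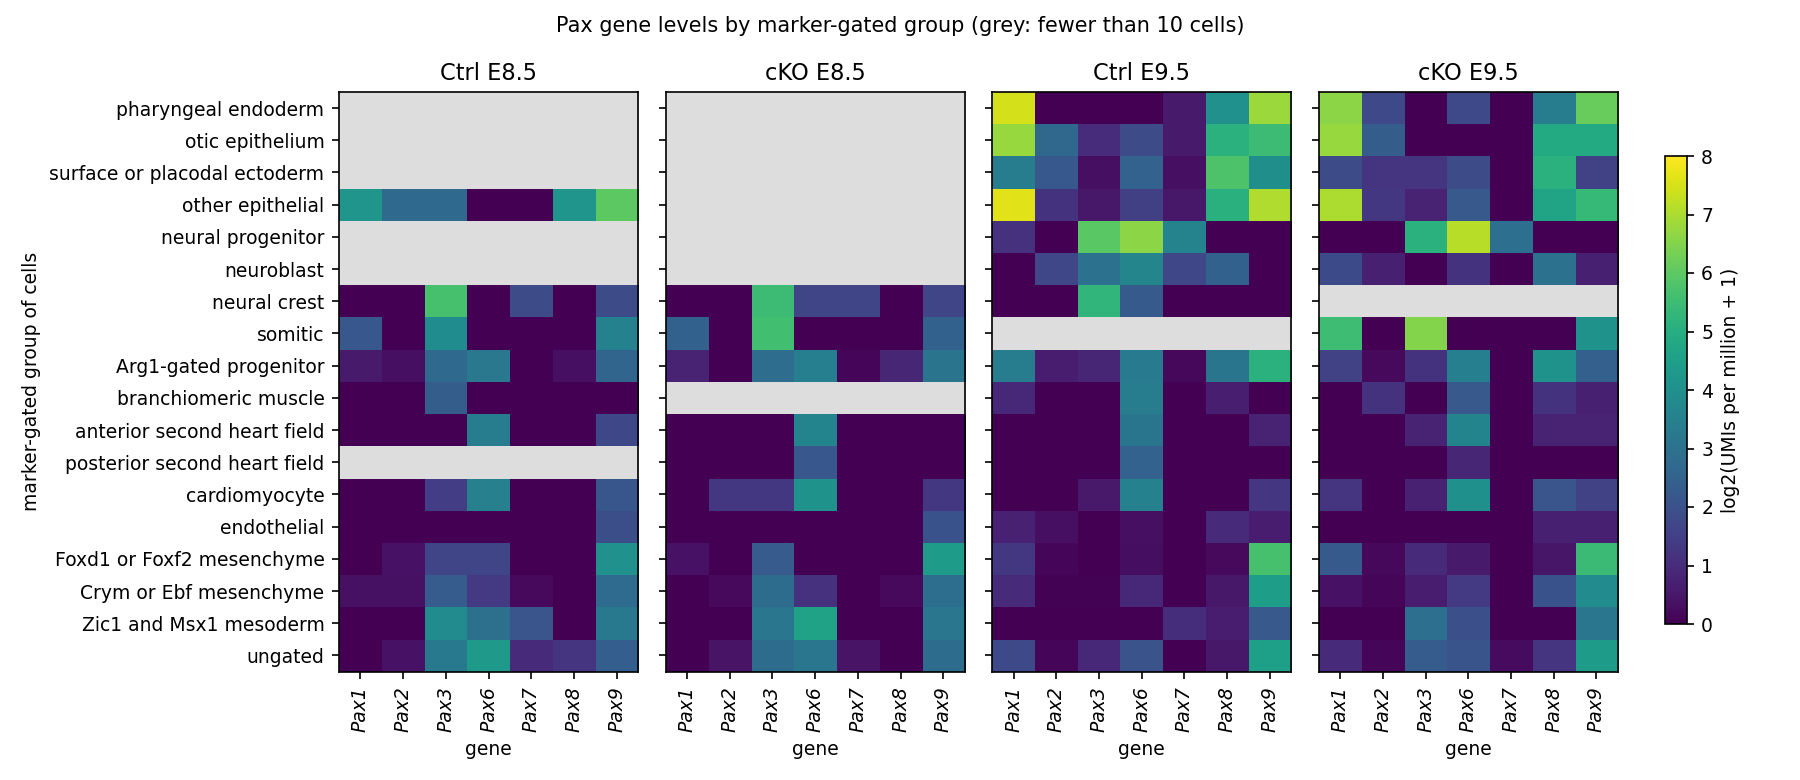
Level of each Pax gene in each marker-defined cell group of the 4 libraries, as log2(UPM + 1) in colour, with groups under 10 cells in grey. Pax1 and Pax9 are highest in pharyngeal endoderm and other epithelium in Ctrl E9.5, Pax9 extends into Foxd1 or Foxf2 mesenchyme, and Pax6 is highest in neural progenitors.

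Pax1 in Ctrl E9.5 was highest in other epithelium at 200 UPM (188 to 213) and pharyngeal endoderm at 180 (162 to 200), whose intervals overlapped. Otic epithelium followed at 108 UPM (93.7 to 123) and surface or placodal ectoderm at 9.32 (6.53 to 12.9). The otic markers summed to 313 UPM inside the otic group and 13.8 UPM outside it. Of its 93 cells, however, 27 held Pax1 and 24 held Pax9. Whether the group also took in pouch cells was not tested. Epithelial cells held 91.3% of all Pax1 UMIs in this library. In cKO E9.5 the levels were 127 UPM (109 to 148) in other epithelium, 95.7 (68.4 to 130) in the 17 cells of pharyngeal endoderm, 107 (69.7 to 156) in the 13 otic cells and 2.63, from 4 UMIs, in surface or placodal ectoderm. The log2 ratio was -0.65 (-0.90 to -0.42) in other epithelium and -0.91 (-1.42 to -0.44) in pharyngeal endoderm, and it was -0.01 (-0.66 to 0.58) in otic cells. Over all epithelial cells Pax1 was at 124 and 68.4 UPM, a ratio of -0.86 (-1.06 to -0.66), beside a median gene at -0.21. The share of other epithelial cells with a Pax1 UMI, after every cell was thinned at random to 10000 UMIs, was 59.5% (53 to 65.7) in Ctrl and 50.7% (38.2 to 63.2) in cKO. Before thinning it was 67.1% and 56.2%. Those intervals overlapped, and in endothelial cells the thinned share was 0.862% in Ctrl and 0 of 80 cells in cKO, which allows a share of up to 3.75%, taken here and below as 3 cells of the total. The exact upper limit is 4.51%.

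Outside the epithelium Pax1 did not follow 1 direction. In Foxd1 or Foxf2 mesenchyme, a group named for the forkhead genes among its markers, it had 18 UMIs in Ctrl and 55 in cKO at E9.5, or 1.45 and 3.77 UPM, a log2 ratio of 1.38 (0.59 to 2.23). In Crym or Ebf mesenchyme, the most populous group, it had 33 and 16 UMIs, or 0.971 and 0.323 UPM, a ratio of -1.59 (-2.55 to -0.69). These are low levels, and the ratios of these groups had opposite signs. Somitic cells had 0 Pax1 UMIs in the 1 cell of Ctrl and 14 in the 19 cells of cKO. Their cKO level was 45.2 UPM (24.7 to 75.9), from 2 positive cells. Of those 19 cells 8 held Arg1 and 0 held Epcam, and their part in the Arg1-positive values that follow was not tested. Arg1-positive cells without Epcam had 11 Pax1 UMIs in Ctrl and 83 in cKO at E9.5, or 0.709 and 2.29 UPM, a ratio of 1.69 (0.78 to 2.75). The Arg1 group as first defined gave the opposite sign, 9.21 and 1.9 UPM and a ratio of -2.28, and that sign depended on its Epcam-positive cells, since without them the ratio was 1.71 (-1.25 to 7.21).

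Pax9 was present in both epithelium and mesenchyme. In Ctrl E9.5 it was at 130 UPM (120 to 140) in other epithelium, 109 (95.1 to 125) in pharyngeal endoderm, 50 (46.1 to 54) in Foxd1 or Foxf2 mesenchyme, 43.5 (34.8 to 53.7) in otic epithelium and 21.2 (19.7 to 22.8) in Crym or Ebf mesenchyme. The mixed Arg1 group stood at 33.4 UPM (29.3 to 37.9), between otic epithelium and Crym or Ebf mesenchyme. Of the groups named, neighbours in level overlapped in their intervals except pharyngeal endoderm against Foxd1 or Foxf2 mesenchyme and the Arg1 group against Crym or Ebf mesenchyme. Endothelial cells, which serve as the background, had 4 UMIs and 0.526 UPM. In cKO E9.5 the levels were 39.9 UPM (30 to 52.1) in other epithelium, 69.4 (46.5 to 99.7) in pharyngeal endoderm, 42.7 (39.4 to 46.2) in Foxd1 or Foxf2 mesenchyme and 13.5 (12.5 to 14.6) in Crym or Ebf mesenchyme.

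The size of the Pax9 difference varied between groups of cells. The lowest log2 ratio was in surface or placodal ectoderm, -2.90 (-5.22 to -1.28), from 57 and 3 UMIs, or 14.8 and 1.97 UPM, and the ratio was -1.70 (-2.13 to -1.30) in other epithelium. Over all epithelium Pax9 was at 77.6 and 26.3 UPM, a ratio of -1.56 (-1.88 to -1.25). It was the 1 of 5 members with enough UMIs there that was at least 2-fold lower, against 6.66% of 11666 genes, and none was 2-fold higher, against 2.89%. The ratio was -0.65 in Crym or Ebf mesenchyme and -0.23 (-0.39 to -0.06) in Foxd1 or Foxf2 mesenchyme. That last value was close to the shift of the median gene over all cells. The thinned share of Pax9-positive cells was 62.8% in Ctrl and 26.9% in cKO in other epithelium, and 37.3% (33.7 to 40.9) and 32.2% (29 to 35.5) in Foxd1 or Foxf2 mesenchyme. Unthinned, it was 71.7% and 35.6% in the former and 46.7% and 43.9% in the latter. In endothelial cells, whose median depth was 19988 and 16020 UMIs, the thinned share was 0.287% and 1.25%.

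At E8.5 Pax9 was measured mostly outside the epithelium. It was at 15.6 UPM (11.6 to 20.6) in Ctrl and 20.2 (15.6 to 25.6) in cKO in Foxd1 or Foxf2 mesenchyme, and at 6 (4.32 to 8.1) and 6.46 (4.67 to 8.7) in Crym or Ebf mesenchyme. Intervals overlapped in both groups. In Arg1-positive cells without Epcam it was at 6.97 and 9.65 UPM, a log2 ratio of 0.47 (0.09 to 0.86). In Ctrl the log2 ratio of E9.5 to E8.5 was 1.67 in Foxd1 or Foxf2 mesenchyme and 1.82 in Crym or Ebf mesenchyme, while over all epithelium it was 0.49 (-0.27 to 1.36), with 15 epithelial cells at E8.5.

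**Figure D4:**
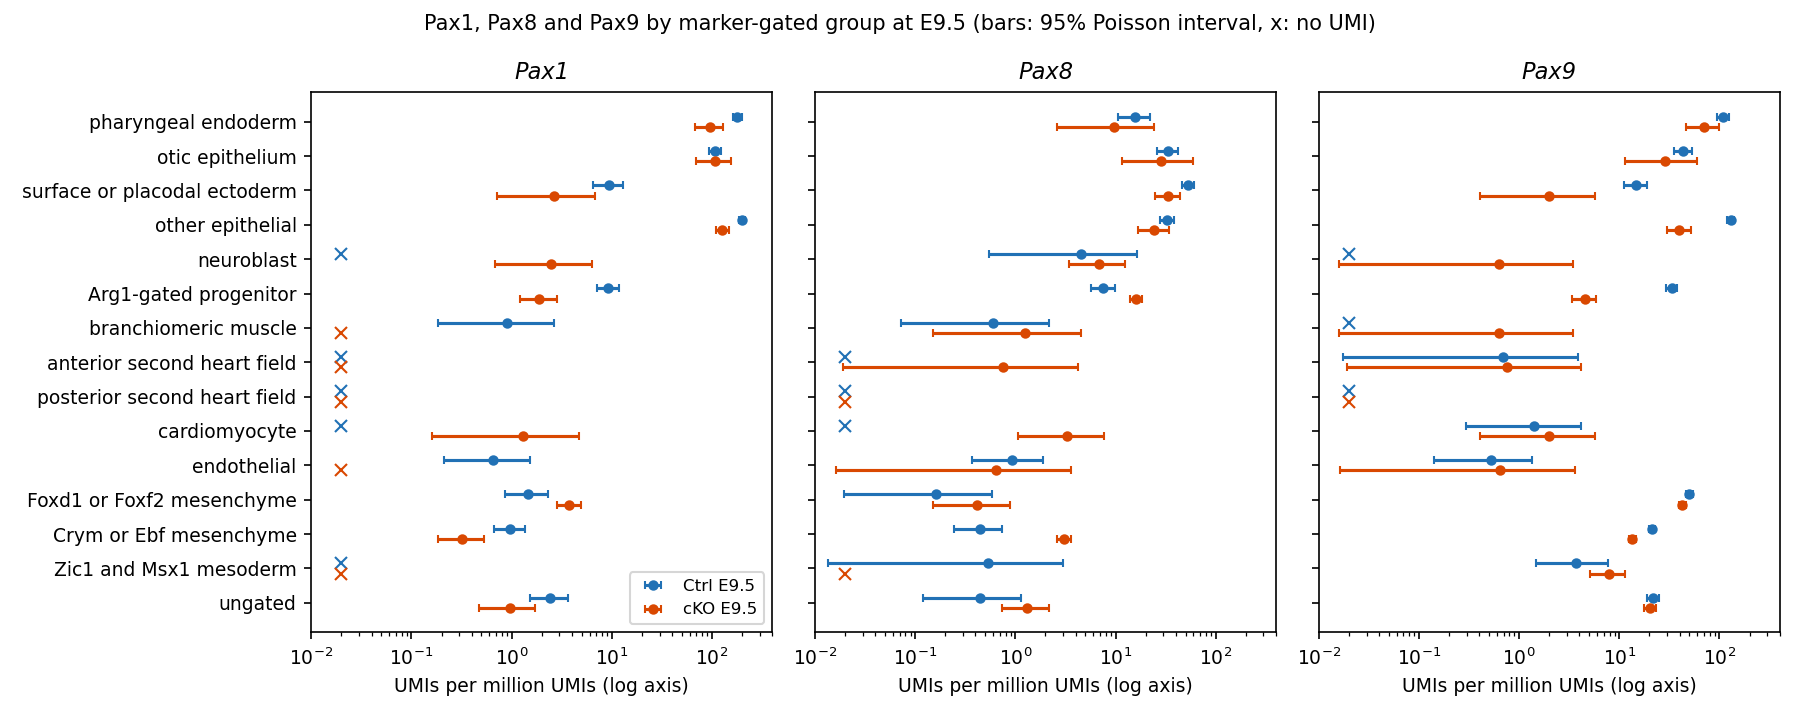
Level of Pax1, Pax8 and Pax9 in each cell group at E9.5, in UPM on a log axis, for Ctrl and cKO, with 95% Poisson intervals; a cross marks a group with no UMI. Pax9 stands at 50 and 42.7 UPM in Foxd1 or Foxf2 mesenchyme but at 130 and 39.9 UPM in other epithelium, and Pax8 is higher in cKO in Crym or Ebf mesenchyme, at 0.441 and 3.07 UPM.

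Pax8 in Ctrl E9.5 was an epithelial transcript, at 53.1 UPM (46.1 to 60.9) in surface or placodal ectoderm, 33.4 (25.8 to 42.5) in otic epithelium, 33 (28.1 to 38.6) in other epithelium and 15.7 (10.6 to 22.2) in pharyngeal endoderm. The middle 2 did not differ beyond their intervals, and the first and the last did. In cKO E9.5 the same groups were at 33.5, 28.7, 24.4 and 9.57 UPM. The log2 ratio was -0.66 (-1.14 to -0.21) in surface or placodal ectoderm and its interval spanned 0 in the other 3 groups. Over all epithelium Pax8 was at 36.5 and 26.9 UPM, a ratio of -0.44 (-0.78 to -0.12) beside a median gene at -0.21. The thinned share of positive cells in surface or placodal ectoderm was 29.8% in Ctrl and 23.4% in cKO, and it was 41% and 39.7% unthinned. In other epithelium the thinned share was 15.3% in Ctrl and 19.4% in cKO, and over all epithelium it was 20.3% and 21.4%.

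Cells without Epcam showed the opposite direction for Pax8. In Arg1-positive cells without Epcam Pax8 had 12 UMIs in Ctrl and 309 in cKO at E9.5, or 0.773 and 8.53 UPM (7.61 to 9.54), and the log2 ratio was 3.46 (2.64 to 4.43). At E8.5 the same cells had 2 and 5 UMIs, or 0.148 and 0.315 UPM. The high level was therefore seen in the cKO E9.5 library among the 4. At a median depth of 16976 and 16560 UMIs, 9 of 874 and 200 of 2045 of these cells held a Pax8 UMI (1.03% and 9.78%), or 0.492% (0.134 to 1.25) and 7.28% (6.14 to 8.54) after thinning. In Foxd1 or Foxf2 mesenchyme the thinned share was 0 of 716 cells in Ctrl, which allows a share of up to 0.419% (exact upper limit 0.514%), and 0.607% (0.197 to 1.41) in cKO.

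Several other groups outside the epithelium also had more Pax8 in cKO. Crym or Ebf mesenchyme had 15 and 152 UMIs, or 0.441 and 3.07 UPM, a log2 ratio of 2.80 (2.03 to 3.67). There, 2 of 8 positive cells in Ctrl and 75 of 103 in cKO (72.8%) also held Arg1, while 8.23% and 21.8% of the cells of the group did. Cells with neither Epcam nor Arg1 were at 0.181 and 0.764 UPM, a ratio of 2.08 (1.11 to 3.17). Cardiomyocytes had 0 UMIs in Ctrl and 5 in cKO, a log2 ratio of at least 1.20 against a floor of 3 UMIs in the group. Endothelial cells had 7 and 1 UMIs, or 0.92 and 0.644 UPM, a ratio of -0.51 (-6.01 to 2.45), and Zic1 and Msx1 mesoderm had 1 and 0. Of all Pax8-positive cells 217 of 236 (91.9%) held Epcam in Ctrl and 80 of 319 (25.1%) in cKO at E9.5, and 35.6% and 79.9% held Arg1. The all-cell Pax8 levels of 5.8 and 4.67 UPM thus came from different cells in the 2 libraries. Epcam-positive cells were fewer, Arg1-positive cells were more, and Pax8 per UMI differed within each in opposite directions. Because Arg1 detection itself differed between the libraries, the Arg1-positive sets compared need not be the same kinds of cells.

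**Figure D5:**
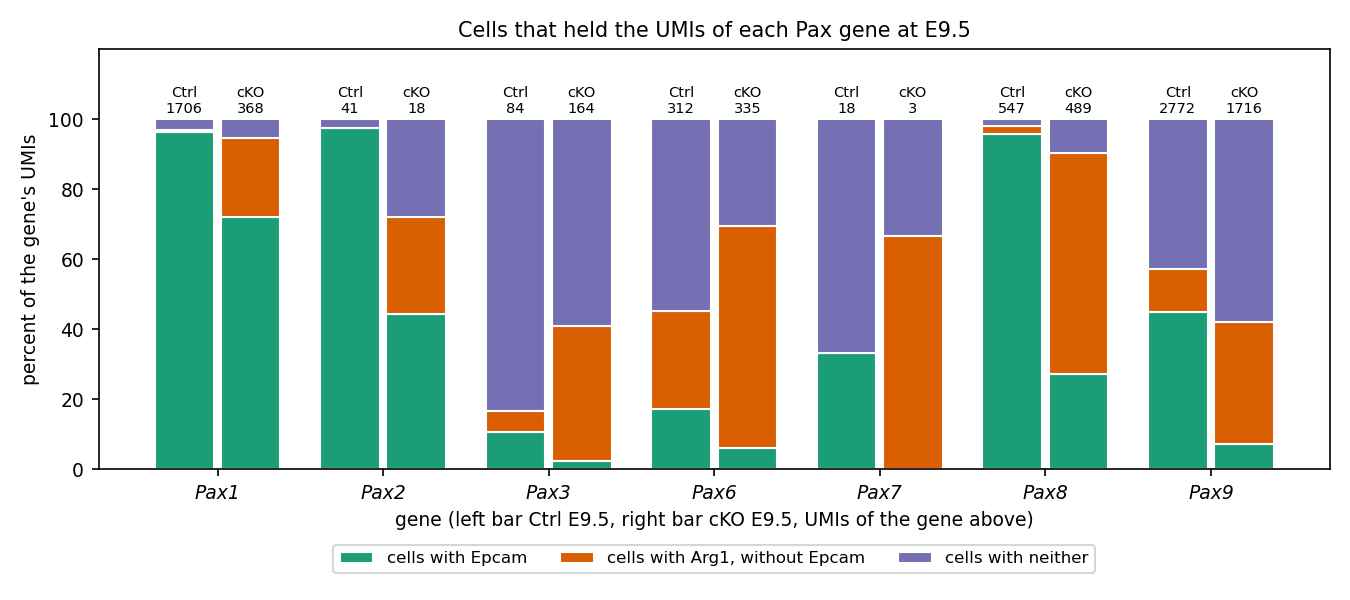
Percent of the UMIs of each Pax gene at E9.5 that came from Epcam-positive cells, from Arg1-positive cells without Epcam and from cells with neither, as stacked bars for Ctrl and cKO. The Epcam-positive part of Pax8 is 95.8% in Ctrl and 27.2% in cKO, that of Pax9 45% and 7.17%, and that of Pax1 96.4% and 72%.

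In the E9.5 comparison within Epcam-positive cells, Pax1 and Pax9 were the 2 of 5 members that were at least 2-fold lower in cKO, against 6.66% of 12463 genes, and none was 2-fold higher, against 3.91%. Their log2 ratios were -1.25 and -1.95. Within Arg1-positive cells without Epcam, Pax1, Pax3 and Pax8 were the 3 of 5 that were at least 2-fold higher, against 3.76% of 12939 genes, and none was 2-fold lower, against 6.69%. In the Arg1 group with its Epcam-positive cells, 1 of 5 (Pax8, at 1.07) was higher, against 3.38% of 11699 genes, and 2 of 5 (Pax1 and Pax9, at -2.28 and -2.89) were lower, against 7.78%. Pax9 in that group was at -0.95 once the Epcam-positive cells were left out. In Arg1-positive cells without Epcam it was at 21.6 and 16.6 UPM, a ratio of -0.39 (-0.58 to -0.19) beside a median gene at -0.25.

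Pax2, the other gene of this subfamily, was scarce. Of its 41 UMIs in Ctrl E9.5, 40 (97.6%) came from Epcam-positive cells, and 8 of 18 (44.4%) did in cKO E9.5. By group it had 11 and 1 UMIs in otic epithelium and 14 and 2 in surface or placodal ectoderm. Over all epithelium it was at 2.47 and 1.7 UPM, and the log2 ratio of -0.54 (-2.09 to 0.74) could not show a difference at this depth.

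Pax6 was highest in neural progenitors, at 297 (231 to 376), 227 (167 to 302), 96.6 (76.5 to 120) and 139 UPM (86.3 to 213), from 9, 8, 49 and 13 cells. The genotypes overlapped at both stages, and 1 cell held 45 of the 228 Pax6 UMIs (19.7%) of Ctrl E8.5. A low level was also present in mesodermal groups. In the Arg1 group it was 8.29, 10, 8.66 and 9.88 UPM, with 7.73%, 6.17%, 8.75% and 8.35% of cells positive after thinning, and 12.7% and 13.2% unthinned at E9.5. In Arg1-positive cells without Epcam it was 6.31, 6.5, 5.61 and 5.88 UPM, nearly equal in the 4 libraries.

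Cardiomyocytes had Pax6 at 10.3, 16.3, 10.4 and 15.1 UPM, from 6, 11, 22 and 23 UMIs, and anterior second heart field cells at 9.42, 11.1, 7.57 and 11.3 UPM. Endothelial cells had 0, 0, 2 and 0 Pax6 UMIs, and the thinned share in Ctrl E9.5 was 10.3% (5.41 to 17.2) of cardiomyocytes and 0 of 348 endothelial cells, which allows a share of up to 0.862% (exact upper limit 1.05%). Unthinned, it was 11.9% and 0.269%. The 2 heart groups were alike in both genotypes within their intervals. The part of reads from Elp4 and Pax6os1, which overlap Pax6, was not tested. Branchiomeric muscle, the precursor of jaw and facial muscle, had 31 and 6 Pax6 UMIs at E9.5, or 9.33 and 3.75 UPM, a log2 ratio of -1.31 (-2.87 to -0.03). Crym or Ebf mesenchyme had 0.883 and 1.57 UPM, a ratio of 0.84 (0.21 to 1.49), so that the near-equal all-cell levels covered groups with opposite signs. The upper end of the branchiomeric interval, -0.03, lay above the median gene over all cells, -0.26, so that lower value is weakly set apart.

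Pax3 had its highest levels in neural progenitors, neural crest and somitic cells. Neural progenitors had 8, 17, 50 and 5 UMIs, or 34.4, 82.3, 61.1 and 33.2 UPM, and neural crest had 19, 20, 10 and 1 UMIs, or 49.6, 43.9, 37.7 and 12.3 UPM. Somitic cells had 4, 10, 0 and 28 UMIs, and in cKO E9.5 their level was 90.4 UPM (60.1 to 131), with 6 of 19 cells positive and 5 of the 8 somitic markers detected in them. Somitic cells numbered 1 in Ctrl and 19 in cKO at E9.5, neural progenitors 49 and 13, and neuroblasts 25 and 78, and the part of these cell numbers in the Pax3 values was not tested. Neural progenitors held 59.5% of all Pax3 UMIs in Ctrl and 3.05% in cKO at E9.5. In Ctrl E8.5 they held 5.37% and neural crest 12.8%, while the Arg1 group held 30.9% and Crym or Ebf mesenchyme 18.8%. The log2 ratio of Ctrl E9.5 to Ctrl E8.5 was 0.83 (-0.26 to 2.12) in neural progenitors and -0.39 (-1.66 to 0.78) in neural crest. In the Arg1 group it was -2.79 (-4.31 to -1.56), and in Crym or Ebf mesenchyme -7.09 (-12.44 to -4.49), from 28 and 1 UMIs.

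The higher Pax3 level of cKO E9.5 lay in cells without a group, in somitic cells and in mesoderm and mesenchyme. Somitic cells had 0 UMIs in the 1 cell of Ctrl and 28 in the 19 cells of cKO, or 17.1% of the Pax3 UMIs of that library. Cells without a group had 8 UMIs in Ctrl and 46 in cKO, or 0.885 and 4 UPM, a log2 ratio of 2.18 (1.08 to 3.47), and they held 28% of the Pax3 UMIs of the cKO library. Foxd1 or Foxf2 mesenchyme had 0 UMIs in Ctrl and 14 in cKO, a log2 ratio of at least 1.99 against a floor of 3 UMIs in the group. Zic1 and Msx1 mesoderm had 0 and 23, a ratio of at least 2.06, and Crym or Ebf mesenchyme had 1 and 26, a ratio of 4.16 (1.55 to 9.51). Arg1-positive cells without Epcam had 75, 118, 5 and 63 UMIs over the 4 libraries, or 5.56, 7.44, 0.322 and 1.74 UPM. The level was lower at the later stage in either genotype, and cKO exceeded Ctrl there with a ratio of 2.43 (1.13 to 4.10). In cells with neither Epcam nor Arg1 the ratio was 0.45 (-0.01 to 0.92). Pax7, which shares the dorsal neural tube with Pax3, had 9 UMIs in neural progenitors of Ctrl E9.5, which were 50% of its UMIs there, and 1 in cKO E9.5.

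Members were also scored in the same cells. In Ctrl E9.5 epithelium 239 of 294 Pax1-positive cells (81.3%) held Pax9, and 239 of 319 Pax9-positive cells (74.9%) held Pax1, where the product of the single shares would give 139 cells. In cKO E9.5 epithelium 36 cells held both, which was 57.1% of 63 Pax1-positive and 80% of 45 Pax9-positive cells, with a product of 15.7. Pax9 was thus not detected in a larger share of the Pax1-positive cells in cKO, whose counts are small. In surface or placodal ectoderm of Ctrl E9.5, 11 of 13 Pax2-positive cells (84.6%) held Pax8, against a product of 5.33, while in otic epithelium 1 of 8 did, against a product of 2.58. All 7 Pax7-positive neural progenitors of Ctrl E9.5 held Pax3, against a product of 2.86. In Arg1-positive cells without Epcam of cKO E9.5, Pax6 and Pax8 were found together in 33 cells, with a product of 14.9, and Pax8 and Pax9 in 23, with a product of 39.1. Depth per cell differs, so deeper cells are positive for more genes, and these counts are descriptions.

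Likeness of profiles was taken as Pearson's r of log2(UPM + 10) over 36 points, each a cell group of 30 or more cells in 1 library, against 4615 genes that reached 50 UPM in at least 1 of them. Points share libraries, so r is a description. Among all those genes Pax9 was most like Pax1, with an r of 0.780. Pax1 was most like Cldn10 (0.923), a tight junction gene, and the ligand genes Fgf3 (0.921) and Fgf15 (0.919). Pax8 was most like Ctxn3 (0.969), Espn (0.961) and Cldn6 (0.953), of which Espn encodes an actin-bundling protein of the inner ear. Cldn6 was among the markers that placed the cells. Neural progenitors reached 30 cells in Ctrl E9.5 alone, so that values for Pax3, Pax6 and Pax7 would rest mainly on 1 point, and Pax2 stayed at 5.56 UPM or less. No likeness is given for these 4 genes.

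Pax factors work with the Eya and Dach proteins, whose genes belong to a network known from the placodes and pharyngeal arches. Over all cells at E9.5, 1 of 10 network genes was at least 2-fold higher in cKO (Eya4, log2 ratio 1.21) and 1 was lower (Dach2, -1.11), against 3.56% and 9.80% of all genes, with a median of -0.08 beside -0.26 for all genes. In Arg1-positive cells without Epcam Eya4 had 13 and 88 UMIs, a ratio of 1.54, and Dach2 had 115 and 90, a ratio of -1.58 (-1.99 to -1.17). Among pharyngeal pouch genes 8 of 10 with enough UMIs were at least 2-fold lower over all cells, against 9.80% of all genes, with a median of -1.49. They included Shh (-3.12), Nkx2-6 (-2.44), Fgf8 (-2.03) and Fgf3 (-1.92). Within the epithelium 1 of the 10 was 2-fold lower, Shh at -1.16, against 6.66% of all genes, and the median was -0.17 beside -0.21 for all genes. The Pax9 ratio there, -1.56, was further from 0 than that of any of these 10 pouch genes.

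Otic placode genes showed a like pattern over all cells, where 8 of 12 were at least 2-fold lower in cKO at E9.5, against 9.80% of all genes, with a median of -1.44. Fgf16 (-3.09), Sox10 (-2.64) and Dlx5 (-2.40) had the largest differences. Within the epithelium 4 of 12 were 2-fold lower, against 6.66% of all genes, and the median was -0.51. In Arg1-positive cells without Epcam 7 of 9 pouch genes were 2-fold lower, against 6.69% of all genes. Among them were Nkx2-6 at -3.13 and Nkx2-5 at -2.05, both cardiac and pharyngeal homeobox genes. Pax8 and Pax1 were higher in the sums over this same set of cells, and pouch genes were not scored in single Pax-positive cells. Over all cells at E8.5, 3 of 9 pouch genes were at least 2-fold higher, against 2.92% of all genes, among them Hoxa3 at 1.07 and Ripply3 at 1.32. None was 2-fold lower, against 1.30% of all genes.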

How the data were processed

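The study sorted GFP-positive, DAPI-negative cells and captured them with a Chromium Single Cell 3′ v2 kit, 1 library per group. The deposited values were unnormalized UMI counts for each gene and cell barcode, made by the authors with Cell Ranger against mm10/GRCm38. The submitters' processing notes name version 3.1.0, and the file headers of the E8.5 matrices give 3.0.2. No counts were normalized, integrated or annotated before deposit. The cKO E9.5 gene table differed from the others, so levels used the shared identifiers, which held 99.4% to 99.9% of UMIs.

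Every deposited barcode was kept, no doublet caller was run, and a cell tied between groups stayed without one. UMIs were summed per group and library in Python 3.11.15 with numpy 2.4.6, scipy 1.17.1 and pandas 2.3.3, and drawn with matplotlib 3.10.9. Sums carry exact Poisson intervals, ratios exact conditional binomial intervals and shares Clopper-Pearson intervals, and a share of 0 is given with the limit of 3 cells of the total. For shares, 10000 UMIs were drawn at random from each cell, which left out the 135, 84, 555 and 718 shallower cells. A gene was counted in a 2-fold comparison when both libraries together held 20 UMIs or more. Genes were named as the members, the members of each gene list with a 2-fold difference, and the 3 genes most like each member, of which some are not reported here. The ratios and their intervals were tested on simulated Poisson counts, and the thinning on part of the Ctrl E8.5 cells. Clustering of UMIs within cells was not simulated. The members, marker lists and gene lists were chosen with earlier results of these data known, and the split by Epcam and Arg1 and the groups without Epcam-positive cells were added after the values had been seen.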

Additional observations from a re-analysis of the deposited data

Results flagged for a closer look

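Pax9 over all cells had opposite signs at the 2 stages. The log2 ratio of cKO to Ctrl was 0.32 at E8.5 and -0.84 at E9.5, each with an interval of counting error that left out 0. The lower end of the E8.5 interval, 0.03, did not exceed the median gene of that comparison, 0.04. The difference between the stages was not tested because each group was 1 library. The E8.5 pools also differed slightly in somite range, the cKO embryos being the later. Within Foxd1 or Foxf2 mesenchyme, which had Pax9 at both stages, the levels were 15.6 and 20.2 UPM at E8.5 and 50 and 42.7 UPM at E9.5 in Ctrl and cKO.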

How the results depend on the processing

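For 121 values, 760 values under other settings were computed, of which 682 stayed within the counting interval of the reported value, 73 moved further and 5 took the opposite sign of a value whose interval left out 0 in the reported setting. No paired analysis was possible because each group was 1 library, and for the same reason no replicate could be left out. With the groups weighted by their Ctrl shares, Pax8 over all cells at E9.5 turned to 0.08, and Pax1 stood at -0.63, Pax2 at -0.20 and Pax6 at 0.26. Centred on the median gene, the E9.5 values were -2.11 for Pax1, 0.21 for Pax6, -0.05 for Pax8 and -0.58 for Pax9, and the stage values were -1.83 for Pax6 and 1.71 for Pax9. Without barcodes above 2.5 times their library's median UMIs (6, 2, 30 and 47 barcodes), Pax6 was at 0.08 for cKO against Ctrl at E8.5 and at -1.15 for Ctrl E9.5 against E8.5, and 1 Ctrl E8.5 cell held 19.7% of the Pax6 UMIs of that library. Pax6 in E8.5 neural progenitors, from 9 and 8 cells, was at 0.24 without those barcodes and -1.40 with groups set on thinned cells. Pax1 in the Arg1 group at E9.5 turned to 1.71 without Epcam-positive cells and to 1.69 in Arg1-positive cells without Epcam. Cells without a group gave 0.36 for Pax6 at E8.5 with groups set on thinned cells and 0.32 for Pax1 at E9.5 with a minimum of 2 markers. A filter at 5000 UMIs and 10% mitochondrial UMIs left all values within their intervals. Counting a cell as positive only from 2 UMIs cannot raise a share, so its direction was fixed in advance. It lowered all 18 shares it was run on, which are among the 73 that moved. Pax9 in Foxd1 or Foxf2 mesenchyme, for example, was then at 10.2% in Ctrl and 8.25% in cKO at E9.5. Leaving out the thinning moved 14 of 18. Depth limits Pax2 and Pax7, with 41 UMIs or fewer per library, and most E8.5 groups.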

Other observations

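Pax4, a gene of the endocrine pancreas, had 0, 0, 0 and 1 UMIs in Ctrl E8.5, cKO E8.5, Ctrl E9.5 and cKO E9.5, and Pax5, known from the midbrain-hindbrain boundary and B cells, had 6, 5, 9 and 3. Neither reached 20 UMIs in a comparison of 2 libraries.

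Among network genes in E9.5 epithelium, Six2 had 128 UMIs in Ctrl and 69 in cKO, or 10.2 and 19.5 UPM, a log2 ratio of 0.94 (0.49 to 1.37), and Eya2 had 64 and 36 UMIs, or 5.09 and 10.2 UPM.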
